A study of Mus musculus with 2 samples.

Results

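Mouse chromosome 17 carried 406 of the 7893 p53 peaks called in embryonic kidney, 5.14% of the list (exact 95% interval 4.67 to 5.65). All peaks whose deposited coordinates lie on this chromosome were taken, and none was left out by a filter. Within the chromosome, the stretch from 33 to 38 Mb, named after the histocompatibility genes, was set against the rest, with each peak placed by its midpoint. It held 63 peaks, and 343 lay outside it. One peak of 6030 bp, chr17:39979847-39985876, described in the selection as a copy of the 45S ribosomal RNA gene, was set apart. The chromosome, the stretch and the 6 kb peak were chosen by their deposited positions, peak numbers and scores, so these values are descriptions and no test was made of them.

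The peaks come from 1 chromatin immunoprecipitation library made with an antibody against p53 from kidney of wild-type C57BL mice at E15.5 (embryonic day). In this assay proteins are fixed to DNA with formaldehyde, the antibody collects fragments bound by its target, and the recovered DNA is sequenced. An input library, chromatin from the same tissue, stage and strain without an antibody, belongs to the series, but no values of it were used here. The tissue was whole kidney, which at this stage mixes nephron progenitors, forming tubules, stroma and vessels, so the peaks cannot be assigned to a cell type. The labels do not say how many embryos gave the chromatin. With 1 library there is no replicate, and no value below carries a replicate error.

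p53 is a transcription factor that binds DNA as a tetramer and, after DNA damage and other stresses, activates genes of cell cycle arrest, DNA repair and apoptosis. The major histocompatibility complex, called H2 in the mouse, is a gene-dense part of chromosome 17. Its class I and class II genes encode the molecules that present peptides to T cells. Genes between them, the class III genes, encode complement components, heat shock proteins and cytokines of the tumour necrosis factor family. In the RefSeq gene table of another assembly, GRCm38.p6, all 25 genes of a list of such genes stand on chromosome 17. In that order the peptide-loading factor Tapbp and the class I gene H2-K1 come first. Class II genes such as H2-Ab1, H2-Aa and H2-Eb1 follow, among them the peptide transporters Tap1 and Tap2. The complement genes C4b, Cfb and C2, the heat shock genes Hspa1b and Hspa1a, and the cytokine genes Ltb, Tnf and Lta come next, before the class I genes H2-D1, H2-T23 and H2-M3. From H2-K1 to H2-M2 that table has 169 protein-coding genes, of which 35 carry an H2 symbol and 16 are olfactory receptor genes. The peaks are in mm9 and no annotation in mm9 was used here, so no peak is assigned to a gene, and whether the stretch matches the complex base by base was not tested.

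Peaks were concentrated from 20 to 40 Mb, and dense and sparse bins alternated after that. The bins before 20 Mb held 7, 12, 14 and 7 peaks, where the median complete bin of the chromosome held 14. The first peak starts at 3083926 and the last ends at 95149718. Over the 92.1 Mb from the first to the last midpoint the density was 4.41 peaks per Mb (exact 95% Poisson interval 3.99 to 4.86). Positions below 50 Mb held 283 peaks, 69.7% of the 406 (exact 95% interval 65.0 to 74.1). The limit of 50 Mb was not among the planned settings, and the share of the span below it was not computed, so no excess is read from this value. The intervals given here, in this paragraph and in all others, cover counting error only. They take each peak as an independent event, and peaks that lie close together are not.

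**Figure D1:**
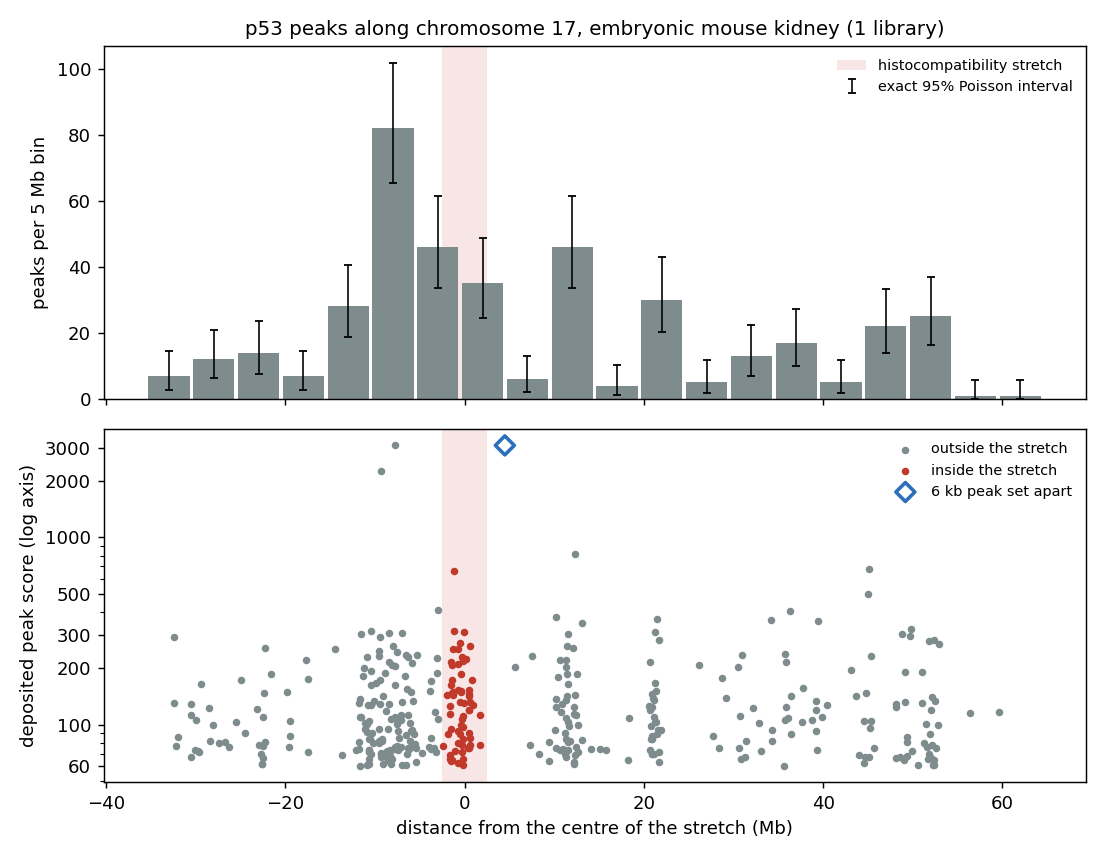
Peaks of chromosome 17 against distance from the centre of the histocompatibility stretch in Mb: above, the number per 5 Mb bin as bars with exact 95% Poisson intervals, and below, the deposited score of each peak on a log axis. The tallest bar, 82 peaks, lies just before the shaded stretch, and the 6 kb peak (diamond) stands alone after it at the highest score.

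In fixed 5 Mb bins the highest number was 82 peaks, from 25 to 30 Mb (exact 95% Poisson interval 65.2 to 102). This bin also held more peaks than any other 5 Mb bin of the whole list, ahead of 76 from 5 to 10 Mb on chromosome 19 and 70 from 95 to 100 Mb on chromosome 11. With bins shifted by 2.5 Mb, the highest number on chromosome 17 was 68, in the bin from 22.5 Mb. Other chromosomes were not counted in shifted bins, so whether the first place holds there was not tested. The bin from 25 to 30 Mb held 20.2% of the chromosome's peaks in 5.43% of the chromosome's span. Peaks covered 1.499% of the bases of this bin. The bins from 30 to 35 Mb and from 45 to 50 Mb held 46 peaks each, and that from 35 to 40 Mb held 35. The next bins down were 55 to 60 Mb with 30 peaks, 20 to 25 Mb with 28, 85 to 90 Mb with 25 and 80 to 85 Mb with 22. These 8 bins of at least 20 peaks held 314 of the 406.

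Some sparse bins stood directly beside dense ones. The bin from 40 to 45 Mb held 6 peaks, between neighbours of 35 and 46, and the bin from 50 to 55 Mb held 4, between neighbours of 46 and 30. The bin from 60 to 65 Mb held 5, the bin from 75 to 80 Mb held 5, and the last bins of the chromosome, from 90 Mb on, held 1 each. The last peak ends at 95149718, and the bin from 95 to 100 Mb was not counted as complete. Its count is therefore not a measure of sparseness. Of 93 bins of 1 Mb, 25 held no peak and 14 held 10 or more. Those 14 held 235 peaks, 57.9% of the chromosome's.

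Against other autosomes, chromosome 17 had about the same share of sparse bins and a higher share of bins with 45 peaks or more. Among complete 5 Mb bins, 7 of 19 on chromosome 17 (36.8%) and 160 of 465 on the other autosomes (34.4%) held 7 peaks or fewer. Bins of 45 peaks or more made up 3 of 19 (15.8%) on chromosome 17 and 22 of 465 (4.73%) elsewhere. The limits of 7 and 45 peaks were not among the planned settings. The bins from 30 to 35 and from 45 to 50 Mb, with 46 peaks each, lie just above 45, so the share depends on this limit. The median bin held 14 peaks on chromosome 17 and 11 elsewhere. Because the chromosome was picked for its peaks, this difference was not tested.

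Score and width varied less between bins than the number of peaks did. The score is the peak caller's own value for each peak, rising with enrichment and with read number, and its scale is not stated in the file. It ranged from 60.01 to 3100 on this chromosome. Among the 8 bins of at least 20 peaks, the median score ran from 88.7 (85 to 90 Mb) to 120 (35 to 40 Mb), and the median width from 765 bp (85 to 90 Mb) to 1050 bp (55 to 60 Mb). The densest bin lay inside both ranges, with medians of 101 for score and 899 bp for width. Over the same 8 bins the number of peaks ran from 22 to 82.

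In the histocompatibility stretch, peaks were denser than over the rest of the chromosome. The 63 peaks gave 12.6 per Mb (exact 95% Poisson interval 9.68 to 16.1), compared with 3.94 per Mb over the rest (3.53 to 4.38). The ratio was 3.20 (exact 95% interval 2.40 to 4.19). Peaks covered 1.28% of the bases of the stretch and 0.385% of those of the rest, a ratio of 3.32.

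The stretch was dense but did not stand alone. Of the 87 windows of 5 Mb stepped by 1 Mb along the chromosome, it ranked 7th by number of peaks. Among the 78 windows that do not overlap it, 4 held as many peaks or more, with a maximum of 84, and the median was 14. All 4 of these overlap the dense bin from 25 to 30 Mb. The density of the stretch was 0.768 of that of the bin from 25 to 30 Mb, with an interval that includes equal density (0.544 to 1.08). From 30 to 33 Mb, between them, 17 peaks gave 5.67 per Mb. Outside 25 to 38 Mb, a range chosen after its values were seen, the chromosome had 3.09 peaks per Mb (2.71 to 3.50), and the stretch was 4.08 times as dense as that (3.04 to 5.41).

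No peak lay within 100 kb of either limit of the stretch. Before 33 Mb the last peak was chr17:32501207-32501716, with a score of 108. The first inside was chr17:33102404-33103015, with a score of 76.5. At the other end the last peak inside was chr17:37182642-37183211, with a score of 112. The next one on the chromosome was the 6 kb peak, 2.80 Mb farther on.

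**Figure D2:**
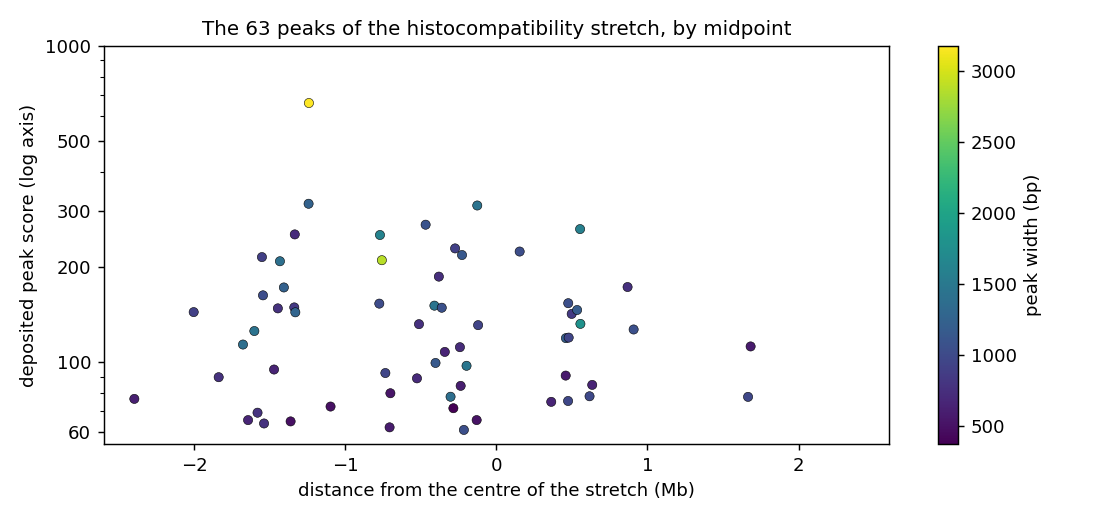
The 63 peaks of the stretch by distance of their midpoint from its centre in Mb, with the deposited score on a log axis and the peak width in bp as colour. Most points lie around and before the centre, few lie at the right end, and the widest and highest-scoring one, at a score of 660, lies 1.24 Mb before the centre.

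Within the stretch, most peaks lay in its middle 2 Mb. The consecutive 1 Mb bins from 33 Mb held 10, 19, 25, 7 and 2 peaks. The 44 peaks from 34 to 36 Mb made up 69.8% of the stretch. The bin from 35 to 36 Mb shared the highest 1 Mb number of the chromosome, 25, with that from 56 to 57 Mb. The longest peak-free run between peaks of the stretch was 757 kb, from 36408910 to 37165414, in its thinly filled last part. Its end, from 37183211 to the limit at 38 Mb, was also free of peaks and was longer than that run. Shorter peak-free runs of 322 kb, from 34402038 to 34724061, and 274 kb, from 35379152 to 35653294, separated the dense groups.

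The strongest signal of the stretch was a pair of adjoining peaks. The peak chr17:34257042-34260215 had a score of 660 and a width of 3174 bp, the widest of the chromosome after the 6 kb peak. Its neighbour chr17:34255751-34256994, 47 bp before it, scored 317 over 1244 bp. Together they span 4.47 kb. The remaining peaks of the top 5 were chr17:35372340-35373781 at 313, chr17:35030747-35031828 at 272 and chr17:36053024-36054604 at 264. The third widest peak of the chromosome, chr17:34740146-34743017, also lay in the stretch, with 2872 bp but a score of only 210.

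The densest 100 kb of the chromosome lay in the stretch, and its 9 peaks were of moderate score. They opened with chr17:35958326-35958885 (score 90.7) and chr17:35959414-35960617 (119). After a peak-free run came chr17:35973813-35974775 (75.4), chr17:35974864-35975906 (154) and chr17:35977826-35978767 (120). Single peaks followed at chr17:35997947-35998790 (142) and chr17:36033554-36034728 (146). The group ended with chr17:36053024-36054604 (264) and chr17:36055057-36056857 (132). None of the 9 reached 300, and their median score was 132, above the 104 of the whole chromosome.

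A close group of 3 peaks within 8.06 kb had no weak member. It held chr17:34161172-34162005 at a score of 149, chr17:34164632-34165340 at 253 and chr17:34167958-34169228 at 144. All 3 lay above the median of the stretch, 125.

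The median score was higher in value in the stretch than outside it, and the widths were close in value. For high scores the order of stretch and rest depended on the threshold. The median score was 125 inside (quartiles 81.9 and 167) and 102 outside (74.6 and 150). The 95% order-statistic intervals of the medians, 97.4 to 146 inside and 92.9 to 109 outside, overlapped. Scores of at least 100 were reached by 38 of 63 peaks inside, 60.3% (exact 95% interval 47.2 to 72.4), and by 176 of 343 outside, 51.3% (45.9 to 56.7). Over the whole list that share was 47.6%. At a score of at least 200, a threshold chosen after the values were seen, it was 13 of 63 inside (20.6%) and 59 of 343 outside (17.2%), where the whole list had 12.8%. Scores of at least 300 were reached by 3 of 63 inside, 4.76% (0.993 to 13.3), and 21 of 343 outside, 6.12% (3.83 to 9.21), where the whole list had 4.87%. Scores of 1000 or more were reached by 3 peaks of the chromosome (0.739%), where the whole list had 0.557%. None of these lay in the stretch, and a count of 0 in 63 peaks allows a share of up to 4.76% when 3 counts are taken as the limit, or 5.69% as the Clopper-Pearson upper bound. The median width was 942 bp inside and 932 bp outside, with intervals of 771 to 1040 bp and 881 to 982 bp. Each median width lay within the interval of the other. For score, the median outside lay within the interval of the median inside, but the median inside lay above the interval of the median outside. No interval of a difference was computed, and overlap of the intervals does not show that the values are equal.

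**Figure D3:**
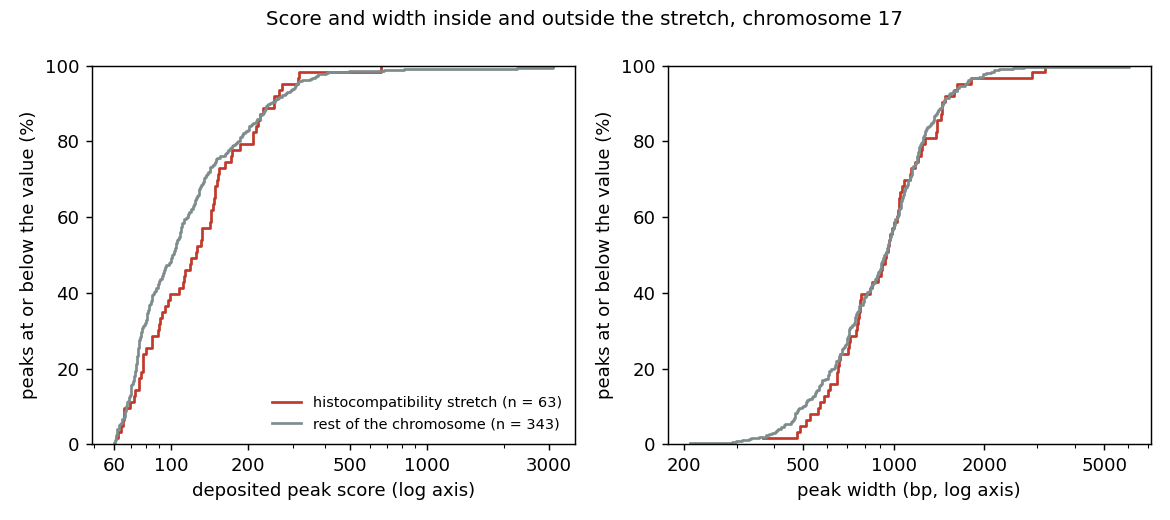
Cumulative share of peaks, in percent, by deposited score (left) and by width in bp (right), both on log axes, for the 63 peaks of the stretch and the 343 of the rest of chromosome 17. The score curve of the stretch lies to the right of the rest around the medians, 125 and 102, and the width curves run together around 942 and 932 bp.

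Scores on the chromosome fell off steeply after the 3 highest, and none of these lay in the stretch. The peak chr17:27759643-27761289, 1647 bp wide, reached 3100, the highest value of the list, which 15 peaks share. It lies in the densest bin, as does the peak chr17:26121956-26123301, with a score of 2251 over 1346 bp. By width these peaks ranked only 22 and 64 among the 406. The next peak, chr17:47765584-47767002, had a score of 813.

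After these came chr17:80605507-80607229 at 681, the pair member of the stretch at 660 and chr17:80461197-80462478 at 496. The first and last of these lie 145 kb apart in the distal part of the chromosome. The list of 10 closed with chr17:32487099-32488003 at 411, chr17:71824359-71825448 at 405 and chr17:45709092-45711590 at 376. Of these 3 the last was the widest, at 2499 bp, and the first the narrowest, at 905 bp.

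In all, 24 peaks (5.91%, exact 95% interval 3.82 to 8.67) scored 300 or more, and 21 of them (87.5%) lay outside the stretch, as did 84.5% of all peaks of the chromosome. Those after the first 10 ran from 304 to 367, and the next peak below 300 had a score of 298. They fell into 10 of the 20 bins: the bin from 25 to 30 Mb held 5, that from 45 to 50 Mb held 4, and those from 30 to 35 and from 80 to 85 Mb held 3 each. In the densest bin 6.10% of the 82 peaks scored 300 or more (exact 95% interval 2.01 to 13.7), an interval that includes the 5.91% of the chromosome. Of the 24, 7 (29.2%) had another peak within 10 kb, next to 28.8% of all peaks of the chromosome and 19.8% of the whole list.

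Bins with more peaks mostly had higher top scores, but the order was not strict. The top score was 108 from 50 to 55 Mb (chr17:53828299-53829384), 165 from 5 to 10 Mb (chr17:6079294-6080196) and 197 from 75 to 80 Mb (chr17:78600040-78601156). It was 223 from 15 to 20 Mb (chr17:17761208-17762735) and 231 from 40 to 45 Mb (chr17:43012985-43014041). From 0 to 5 Mb, with 7 peaks, it reached 293 (chr17:3114218-3115679), and from 65 to 70 Mb, with 13 peaks, 364 (chr17:69731615-69733853). From 70 to 75 Mb, with 17 peaks, it reached 405. In the better-filled bins from 20 to 25, 55 to 60 and 85 to 90 Mb it was 305, 367 and 324. From 80 to 85 Mb it was 681, from 30 to 35 Mb 660 and from 45 to 50 Mb 813. It was 3100 from 25 to 30 Mb and, for the 6 kb peak, from 35 to 40 Mb. The top score of a bin is taken from more values where the bin holds more peaks, and the part of this in the order was not tested. The relation between peak number and top score was not tested either.

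The 6 kb peak was the widest of the chromosome and among those farthest from any other peak. At 6030 bp it was 6.44 times as wide as the median peak of 937 bp and 1.90 times as wide as the second widest. It shared the highest score, 3100, with the 1647 bp peak at 27759643. The score stops at this value, at which 15 peaks of the list stand, so peaks that reach it cannot be ranked among themselves. No other peak lay within 2.80 Mb before it or 1.09 Mb after it, and it stood in the sparse ground between the stretch and the dense bin from 45 to 50 Mb. It made up 15.3% of the peak-covered bases in the bin from 35 to 40 Mb.

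Ribosomal RNA genes are present in many copies per genome. In the GRCm38.p6 gene table an 18S ribosomal RNA pseudogene, Rn18s-rs5, stands on chromosome 17 between Esp15 and AY036118. It was not matched to the peak, because the builds differ. Whether the peak also appears in the input library was not tested. Without it, the median score of the chromosome was 103.9 in place of 104.2 and the median width 934 in place of 937 bp. The part of the covered bases it accounts for was 1.51%.

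Many peaks of the chromosome had a close neighbour, in the stretch and in other well-filled parts. On chromosome 17, 117 of 406 midpoints (28.8%, exact 95% interval 24.5 to 33.5) had another midpoint within 10 kb, where the share over the whole list was 19.8%. In the stretch it was 27 of 63 (42.9%, 30.5 to 56.0) and in the rest 90 of 343 (26.2%, 21.7 to 31.2). In the bin from 25 to 30 Mb it was 36.6% (26.2 to 48.0), in that from 45 to 50 Mb 47.8% (22 of 46) and in that from 80 to 85 Mb 45.5% (10 of 22). None of these differences was tested. Density also differs between the stretch and the rest, at 12.6 and 3.94 peaks per Mb, and its part in the shares was not tested. The median distance between consecutive midpoints was 21.6 kb in the stretch and 59.9 kb in the rest.

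The close neighbours were mainly pairs. Linking midpoints within 10 kb gave 53 groups, of which 43 were pairs, 9 had 3 peaks and 1 had 4. The group of 4 ran from 46765666 to 46787967, with scores from 66.8 to 222. The stretch held 11 of the 53 groups and 5 of the 9 with 3 peaks.

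Some neighbours were nearly touching. In 19 of 405 consecutive pairs the edges lay within 1 kb. The closest, chr17:46167464-46168855 (score 223) and chr17:46168867-46170025 (score 72.9), were 11 bp apart. Next were chr17:56442256-56443206 and chr17:56443222-56444071, 15 bp apart, at 84.4 and 70.0. A pair 16 bp apart, chr17:27340495-27341132 and chr17:27341149-27341943, scored 65.4 and 207. The peak at the highest score in the densest bin also had such a companion, chr17:27758597-27759602, 40 bp before it, which scored 109 beside 3100.

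Long empty runs took up much of the chromosome. Distances of over 1 Mb between consecutive midpoints occurred 23 times and added up to 45.7 Mb, 49.7% of the span. None of them lay wholly inside the stretch, but that of 2.80 Mb before the 6 kb peak, free of peaks from 37183211 to 39979847, began in it. The longest peak-free run was 4.23 Mb, from 57388230 to 61613496. It was followed by 3.40 Mb and 3.28 Mb at the distal end, on either side of the lone peak chr17:91866251-91866717 (score 115).

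The peaks farthest from any other were not weak ones only. The lone distal peak and the last of the chromosome, chr17:95148684-95149718 (score 117), were 3.28 Mb apart. The peak chr17:61613496-61614168, at a distance of 1.62 Mb, scored 209 over 673 bp. The 6 kb peak and chr17:41071137-41071944 (score 203) were 1.09 Mb apart.

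Higher-scoring peaks were wider, to a like degree in and out of the stretch. Median width was 703 bp among the 192 peaks below a score of 100, 1055 bp among the 190 from 100 to below 300, and 1454.5 bp among the 24 at 300 or more. Spearman's rho of score with width was 0.58 over the 406 peaks, 0.57 over the 63 of the stretch and 0.59 over the 343 of the rest. These values describe peaks that share 1 library and its depth. The peak caller sets both measures from the same reads. The narrowest peak, chr17:68621514-68621723, was 210 bp wide and scored 72.8.

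**Figure D4:**
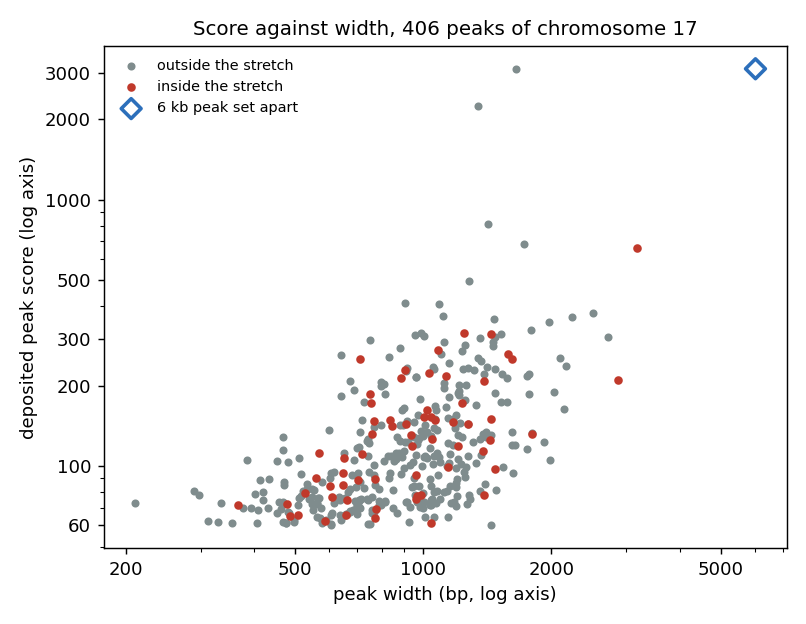
Deposited score against width in bp, both on log axes, for the 406 peaks of chromosome 17, with the peaks of the stretch and the 6 kb peak marked. The cloud rises with width, the peaks at 3100 and 2251 stand above it, and the 6 kb peak lies alone at the upper right.

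Chromosome 17 was set beside chromosomes 11 and 19, the other most peak-dense chromosomes. Its median score, 104 (95% order-statistic interval 94.9 to 110), was the highest of the 20 chromosomes in the list by value, next to 102 on chromosome 11 and 100.2 on chromosome 19. All other chromosomes together had a median of 96.4. The share scoring 100 or more was 52.7% (exact 95% interval 47.7 to 57.7), next to 51.4% and 50.2%. The median width was 937 bp, next to 945 bp and 852 bp. The share with a midpoint within 10 kb was 28.8%, next to 30.7% and 21.8%. Its density of 4.41 peaks per Mb was below the 5.87 of chromosome 11 and the 5.02 of chromosome 19. These orders were not tested. The medians of chromosomes 11 and 19 and of all other chromosomes together lie within the interval of the chromosome 17 median score.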

How the data were processed

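Peaks were called with MACS on mm9, per the submitters' processing notes and the file's track line. The deposited list gives chromosome, start, end, name and the caller's score for each peak. The score is the authors' own value, on a scale the file does not state. For the aligner, the settings and version of MACS, duplicate reads and the role of the input as control, the answer is not given in the sources used here. Sequencing depth is unknown, so single peaks carry no interval.

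Deposited starts, counted from 0, are printed 1-based. Peaks were placed by midpoint in 5 Mb and 1 Mb bins. Density used the span from first to last midpoint. Intervals at the 95% level are exact Poisson for counts, Clopper-Pearson for shares, conditional binomial for density ratios and order-statistic for medians. No significance test was run, because there is 1 library per group. Bin counting, merging and ratio intervals were tested on simulated data. Python 3.11.15, numpy 2.4.6, pandas 2.3.3, scipy 1.17.1 and matplotlib 3.10.9 were used.

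The region, the lists and the rules were chosen with earlier results of these data known. Peaks named were the 10 highest-scoring, the 5 widest, the highest of each 5 Mb bin, the top 5 of the stretch, those in the densest 100 kb, those at the edges of the stretch, the most distant and the closest pairs. Others named, the narrowest peak, the groups linked within 10 kb and the companions of strong peaks, were chosen after their values were seen. Neither genome nor annotation of mm9 was used, so sequences, motifs and genes at peaks were not analysed here. Alternatives tried were a score of at least 100, merging within 1 kb, leaving out the 6 kb peak, shifted bins, other limits of the stretch, other neighbour distances and ranking by score per kb.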

Additional observations from a re-analysis of the deposited data

How the results depend on the processing

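Of 61 values recomputed under an alternative, 44 stayed within the interval of the reported value, or within 1.5 times for counts and ratios. Leaving out the 6 kb peak, shifting the bins by 2.5 Mb, placing peaks by start and widening the stretch to 32 to 39 Mb left all values they were applied to within these limits. Ranking by score per kb of width left 8 of the 10 highest-scoring peaks among the first 10, a measure that for the peaks at 3100, where the score stops, reflects width only. With peaks scoring at least 100 only, the densest bin held 42 peaks, with medians of 165 for score and 1038.5 bp for width. The median score was then 152 inside the stretch and 148 outside, and the median width 1047 bp inside and 1082 bp outside. The share with a neighbour within 10 kb was 18.7%, the share of the list on chromosome 17 5.69%, the density 2.32 peaks per Mb and rho 0.37. These shifts in score and number follow from removing low-scoring peaks. The cause was not tested for the share of the list. When peaks within 1 kb were merged, this lowered the share with a neighbour to 20.9%, since merged peaks no longer count each other. Narrowing the stretch to 34 to 37 Mb raised the density ratio to 4.27. By midpoint, the share with a neighbour within 1 kb was 2.96% on the chromosome and 0 in the stretch. Within 100 kb these shares were 80.0% and 92.1%. By their edges, 4 of the 62 consecutive pairs of the stretch lay within 1 kb. No paired analysis was possible because the series has a single sample of each kind. Depth is unknown, and how many weak peaks a deeper library would add was not tested.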
